A study of Mus musculus with 6 samples.

Results

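The regions described here are the 5 Mb of each mouse autosome that lie next to the centromere, from 3 to 8 Mb of chromosomes 1 to 19 in the mm10 (GRCm38) assembly. They were defined by position alone, as the first 5 Mb after the unassembled gap at the centromeric end. Earlier results of these data were known when they were chosen. Every H3K9me3 peak that overlapped them by at least 1 bp was counted as a member. The 2 shCTR lists held 1577 and 1586 of them and the 2 shPHF8 lists 1351 and 1727 (replicate 1 first, as throughout), which made 6241 of the 207294 peaks of the 4 lists (3.01%). Merged across libraries where they overlapped or touched, they formed 2220 of the 70705 autosomal regions.

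The study used ChIP-seq, the sequencing of immunoprecipitated chromatin, to map histone H3 trimethylated at lysine 9 (H3K9me3) in mouse neural stem cells (NSCs), derived from cerebral cortex at E12.5. Cells were transduced with lentivirus carrying either a scrambled shRNA (shCTR) or an shRNA targeting PHF8 (shPHF8). All 4 ChIP libraries therefore share lentiviral transduction and, by the study's methods, puromycin selection. The 2 inputs, 1 for each condition, were not used here, and the labels do not say whether replicate libraries came from separate cultures, so the spread between them may be technical. The study's appendix lists uniquely and multiply mapped reads for each library, and cover was not scaled to these totals. Uniquely mapped reads were fewest in shPHF8 replicate 2. The peak lists give positions without a height, a score or a read count. The depth behind a single peak is therefore unknown, and the loss of PHF8 cannot be checked in these lists. They also cannot show that the cells were NSCs: of 8 NSC marker genes, 1 had a peak within 1 kb of a start site in all 4 libraries and 2 had one in at least 1 library.

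H3K9me3 is the mark of constitutive heterochromatin. It is placed around centromeres mainly by Suv39h1 and Suv39h2 and is bound by HP1 proteins. PHF8 is a histone demethylase that removes lower methylation states of H3K9 and monomethylated H4K20, and the dimethylated state is the substrate from which Suv39h enzymes make H3K9me3. Mouse autosomes carry their centromere at one end, where long arrays of major and minor satellite are found, and most of these arrays are missing from the assembly. The windows studied here therefore begin at 3 Mb, beyond this gap, and run outward into the chromosome arm. Some hold further unassembled bases in their first 500 kb. There 450000 bases were assembled on chromosomes 2, 4, 6, 15 and 16. On chromosomes 10 and 11 it was 399900 and 400000.

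The sequences below show what lay under peaks in these windows, each read from the forward strand of GRCm38 with CpG dinucleotides in capitals. The first is from the middle of the part that all 4 libraries covered in the widest shared region apart from the one over Zeb1, at chr17:3020251-3020550. The next pair come from peaks that touch the window start, at chr3:3008551-3008840 and at chr9:3004051-3004350, the chromosome 9 stretch having been added after its values were seen. The last pair are from the widest region gained in shPHF8, at chr2:4935851-4936150 in the gene Phyh, and from the widest region lost, at chr17:7178251-7178550 in the gene Rps6ka2. The chromosome 2 and chromosome 9 stretches overlap annotated exons and the other 3 do not.
chromosome 17, widest shared region: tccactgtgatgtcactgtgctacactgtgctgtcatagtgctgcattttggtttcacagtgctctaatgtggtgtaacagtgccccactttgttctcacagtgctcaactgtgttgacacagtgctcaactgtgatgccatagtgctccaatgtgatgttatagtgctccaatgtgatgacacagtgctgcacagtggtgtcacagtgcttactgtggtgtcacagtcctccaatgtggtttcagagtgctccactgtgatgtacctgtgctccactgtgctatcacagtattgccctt
chromosome 3, window start: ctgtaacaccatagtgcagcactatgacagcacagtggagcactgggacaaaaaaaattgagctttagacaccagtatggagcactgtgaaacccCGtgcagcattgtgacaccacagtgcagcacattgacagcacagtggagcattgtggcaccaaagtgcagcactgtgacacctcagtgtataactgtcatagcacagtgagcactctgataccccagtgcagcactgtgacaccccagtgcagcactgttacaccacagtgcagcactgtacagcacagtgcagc
chromosome 9, window start: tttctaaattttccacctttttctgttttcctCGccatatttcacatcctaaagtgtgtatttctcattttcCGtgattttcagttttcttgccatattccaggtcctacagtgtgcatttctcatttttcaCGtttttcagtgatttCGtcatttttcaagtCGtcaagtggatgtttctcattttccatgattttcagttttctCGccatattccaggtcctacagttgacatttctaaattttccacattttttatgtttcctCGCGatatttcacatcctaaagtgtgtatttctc
chromosome 2, widest gained region: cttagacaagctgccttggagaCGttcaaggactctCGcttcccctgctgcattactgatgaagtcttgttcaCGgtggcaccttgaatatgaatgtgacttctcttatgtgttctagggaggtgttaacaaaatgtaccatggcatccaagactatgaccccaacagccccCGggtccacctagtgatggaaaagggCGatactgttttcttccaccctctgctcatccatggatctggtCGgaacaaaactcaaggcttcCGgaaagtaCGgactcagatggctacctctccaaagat
chromosome 17, widest lost region: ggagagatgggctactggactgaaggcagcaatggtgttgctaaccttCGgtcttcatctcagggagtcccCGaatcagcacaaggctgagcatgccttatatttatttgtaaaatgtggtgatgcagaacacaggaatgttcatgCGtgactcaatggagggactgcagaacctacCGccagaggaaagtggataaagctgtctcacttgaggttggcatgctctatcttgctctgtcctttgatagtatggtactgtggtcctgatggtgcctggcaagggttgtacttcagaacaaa

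The chromosome 17 stretch held no CpG and the chromosome 3 stretch held 1, while the chromosome 9 and chromosome 2 stretches held 8 each and the lost region on chromosome 17 held 4. Soft-masked bases, those that the assembly marks as repeats, made up 93.7% of the chromosome 9 stretch, 51.7% of the chromosome 3 stretch and 37.7% of the shared chromosome 17 stretch. The stretch inside the gained region had 0 soft-masked bases of 300, and the stretch inside the lost region had 7.67%. The stretches printed from the window starts were thus richer in marked repeats than those from the widest gained and lost regions.

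As a whole, the centromere-proximal windows carried less called H3K9me3 than the arms beyond them. The windows were covered by peaks to 4.84% and 4.92% with shCTR and to 6.59% and 6.18% with shPHF8. The rest of the same autosomes, from 8 Mb to the end, was covered to 6.56%, 6.68%, 9.20% and 8.25% in the same order. The ratio of the windows to the rest was 0.737, 0.736, 0.717 and 0.750, with a mean of 0.735 ± 0.0135 (SD, n = 4), so every library had the lower share near the centromere. At the other end, the last 5 Mb of the autosomes were covered to 9.25%, 9.68%, 12.4% and 11.1%, above the rest in every library.

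The lower cover came with fewer peaks per Mb. The windows held 16.6, 16.7, 14.2 and 18.2 peaks per Mb, against 22.3, 22.6, 18.5 and 23.2 in the rest. Peak width was close: the median was 2400 bp on both sides of the 8 Mb boundary in both shCTR libraries, 4000 bp against 4200 bp in shPHF8 replicate 1, and 2800 bp against 3000 bp in shPHF8 replicate 2. Peaks of at least 5 kb made up 10.7%, 11.03%, 32.3% and 15.6% of the window peaks, which sets shPHF8 replicate 1 apart from the other libraries.

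The windows were not alike. Only chromosomes 11 and 18 had a larger covered share in the window than in the rest of the autosome in all 4 libraries, 2 of 19, whereas 38.3% of all 472 full 5 Mb windows of the autosomes exceeded their own rest in this way. In 14 of 19 the window had the smaller share in all 4 libraries, against 50.8% of all windows, and chromosomes 2, 10 and 16 were mixed. No proximal window ranked first on its autosome. The median covered share was 4.98% over the 19 windows and 6.46% over all windows, on the mean of the 4 libraries.

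**Figure D1:**
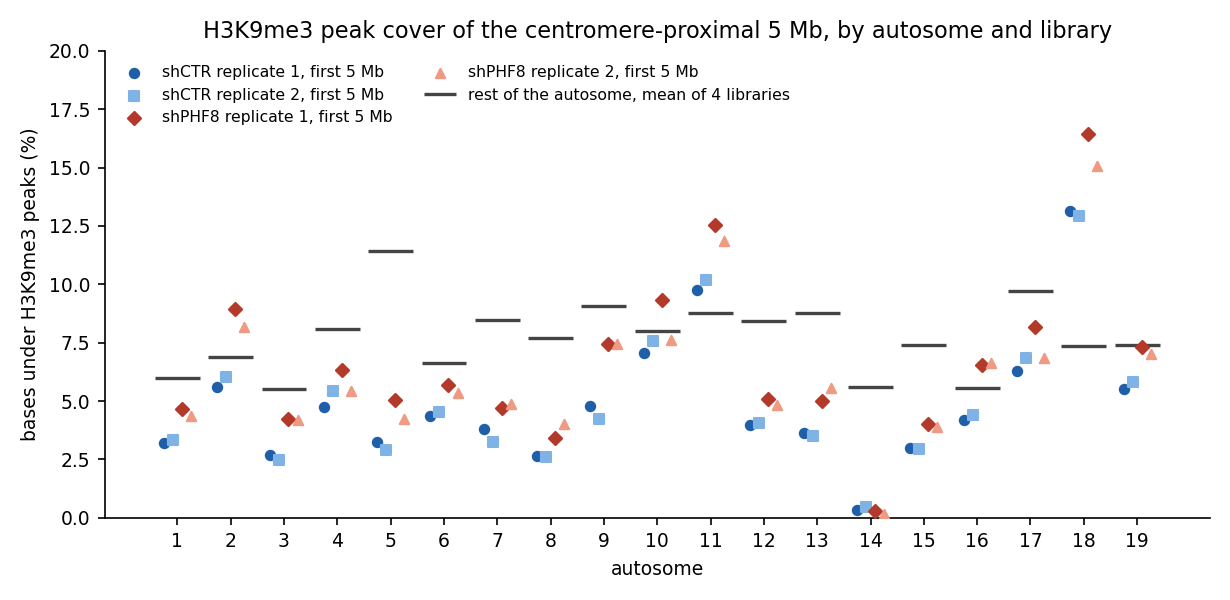
Percent of bases under H3K9me3 peaks in the first 5 Mb of each autosome (1 symbol per library) and in the rest of that autosome (bar, mean of the 4 libraries). Chromosome 18 stands highest at 12.9% to 16.4%, chromosome 14 lies near 0, and on 14 autosomes all 4 symbols are below the same library's rest.

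Chromosome 18 had the most covered window. Its cover was 13.2% and 12.9% in shCTR and 16.4% and 15.1% in shPHF8, 1.87 to 2.07 times the rest of the chromosome, and it ranked 3 among the 17 windows there. Chromosome 11 followed with 9.74%, 10.2%, 12.5% and 11.8%, 1.21 to 1.29 times its rest, and chromosome 10 was next with a mean of 7.89%. By the ratio to its own rest, chromosome 2 came after chromosome 11, at 0.934 to 1.14 times. Across all 472 windows 42 had a higher mean than the chromosome 18 window, so it was high among proximal windows and not at the top of the genome.

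Chromosome 14 lay at the other extreme. Its window was covered to 0.328% and 0.444% in shCTR and 0.308% and 0.160% in shPHF8, against a mean of 5.61% over the rest of the chromosome, and no full 5 Mb window of any autosome had a lower mean. The first peak of any library lay 4721200 bp into the window, and the 4 lists held 5, 10, 4 and 4 peaks in it. This window is an assembled block of near copies: 84.3% of its 50-base words, the length of the reads, occurred more than once within the window, and it holds 103 protein-coding genes. Chromosome 5 (0.297 to 0.375 times its rest) and chromosome 8 (0.366 to 0.482 times) had the next lowest ratios.

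How reads that map to several places were treated is not stated, and its part in the low cover was not tested. Without chromosome 14 the mean ratio of the windows to the rest was 0.763, and with only those positions counted whose 50-base word occurs once in its 5 Mb window it was 0.769. Both remained below 1. Without chromosome 18 the ratio was 0.670.

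The windows contain more repeat sequence than the arms. Their median soft-masked share was 39.0%, against 32.5% over all windows, and 14 of the 19 lay above that median. Over the 19 windows, covered share was lower where the soft-masked share (Spearman's rank coefficient -0.59) and the share of repeated 50-base words (-0.50) were higher, and higher with GC content (0.50) and CpG density (0.52). Over all 472 windows the same coefficients were -0.66, -0.57, 0.86 and 0.86. These are descriptions across windows of the same libraries, which share base composition and mappability, and carry no test. The rank coefficient of cover in a window with cover over the rest of its autosome was 0.23. With the number of coding genes in the window it was 0.12, against 0.60 over all windows, and it was 0.27 without chromosome 14 and 0.43 without chromosomes 14 and 18.

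The cover that all libraries shared had a different composition in the windows than in the arms. Bases covered in all 4 libraries were 41.7% soft-masked in the windows, slightly above the 39.8% of bases covered in none. In the rest of the autosomes the order was the opposite, with 30.2% in shared cover and 33.6% outside it. CpG density behaved alike on both sides: shared cover held 11.6 CpG per kb in the windows and 12.7 in the rest, against 7.77 and 8.17 per kb in uncovered sequence.

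Within the windows, cover was highest close to the gap. The first 500 kb of the 19 autosomes were covered to 7.60% and 7.47% in shCTR and 10.7% and 10.5% in shPHF8, against 4.53%, 4.64%, 6.13% and 5.70% over the remaining 4.5 Mb. The length of 500 kb was chosen after the distance profile was seen. In the first 100 kb the shares were 10.0%, 9.40%, 12.9% and 13.3%. Unassembled bases, which can hold no peak, count in the denominator of all these shares. On 9 of 19 autosomes the first 500 kb exceeded the rest of the autosome in all 4 libraries, where 30.6% of all 4802 full 500 kb windows did.

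The rise near the gap was uneven between autosomes. On 13 autosomes the first 500 kb had a higher mean cover than the next 4.5 Mb, and 13 had their first peak within 100 kb of the window start. This distance includes unassembled bases. On chromosome 10, where 399900 bases of the first 500 kb were assembled, the first peak lay at 101000 bp. Chromosome 4 had the highest mean at 17.4%, followed by chromosomes 3 (16.6%), 11 (15.9%) and 9 (15.4%). On chromosome 3 the next 4.5 Mb were covered to only 1.93%. Chromosome 14 had no peak in its first 500 kb in any library. Without chromosomes 3, 4, 9, 16 and 17, whose window starts hold the tandem repeats described next, the first 500 kb were covered to 6.10%, 6.33%, 8.49% and 8.24%, against 4.82%, 4.86%, 6.40% and 5.99% over the next 4.5 Mb. The difference was smaller without these autosomes, which were chosen after the data were seen, and kept its direction in each library.

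**Figure D2:**
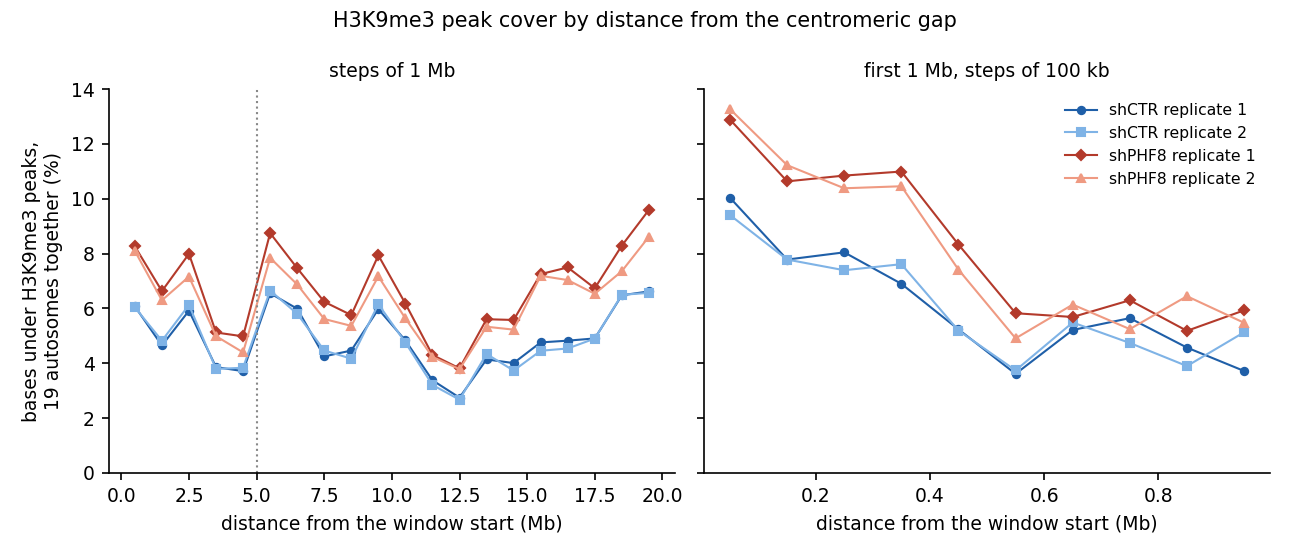
Percent of bases under H3K9me3 peaks over the 19 autosomes together, by distance from the window start, in steps of 1 Mb (left, dotted line at the end of the 5 Mb window) and 100 kb (right), 1 line per library. Cover falls from 9.40% to 13.3% in the first 100 kb to 3.61% to 5.82% between 0.5 and 0.6 Mb, the 100 kb step with the lowest mean. It does not fall steadily beyond: the mean of the 4 libraries was 7.11% in the first Mb, 6.80% between 2 and 3 Mb and 7.45% between 5 and 6 Mb. Unassembled bases count in the denominator.

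Peaks near the window starts of chromosomes 3, 4, 16 and 17 lay on tandem repeats with a period of 21 bases. The region chr17:3003801-3038600, 34800 bp wide and 3800 bp from the window start, was covered over 30400 and 28600 bp in shCTR and 34000 and 34600 bp in shPHF8. Shifted by 21 bases against itself it was identical at 63.7% of positions, against a median of 25.6% over shifts of 2 to 1000 bases. The regions chr3:3000001-3017800 and chr4:3050001-3056800 gave their best match at the same shift, with 61.3% and 64.2% identity. The region chr16:3231401-3250800, which lies 231400 bp into the window, did so with 46.7%.

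These repeats hold the 7-base word CACTGTG at high density, counted with its reverse complement CACAGTG and without overlaps, which neither word allows. The word was chosen after the chromosome 17 sequence had been read. In the first 120 bases of that sequence, chr17:3020251-3020370, the 5 matches of either word are shown in capitals.
chromosome 17, first 120 bases: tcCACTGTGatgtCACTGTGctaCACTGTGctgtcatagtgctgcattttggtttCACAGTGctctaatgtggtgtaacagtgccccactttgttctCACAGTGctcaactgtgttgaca
The word occurred 32.0 times per kb in the chromosome 17 region, 28.8 and 25.2 times in the first pair of chromosome 3 regions, and 29.4, 22.1 and 17.1 times in 3 neighbouring regions of chromosome 4. The median over shared regions was 0.25 per kb in the windows and 0.28 over the autosomes.

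Sequence dense in this word was concentrated at the starts of 4 windows. Of the 15721 autosomal regions of at least 5 kb shared by all 4 libraries, 14 held at least 3 matches per kb, and 8 of these 14 were among the 458 proximal ones, on 5 autosomes. Among all 4802 windows of 500 kb, the first windows of chromosomes 17, 3 and 4 had the highest densities (2.55, 1.98 and 1.95 per kb, median 0.264). Counted in 200 bp tiles, 557 proximal tiles held at least 3 matches (0.117% of all proximal tiles), and 85.6% of them lay in the first 500 kb. Of these tiles 80.6% and 80.3% were under a peak in shCTR and 85.1% and 84.6% in shPHF8. Since the word was read from a stretch under a peak in all 4 libraries, these shares are a description of the chosen regions. On chromosomes 3, 4, 16 and 17 lay 489 of the 557 tiles (143, 125, 55 and 166), and 90.6% to 94.5% of these were under a peak. The 68 tiles on the other autosomes were under a peak in 8.82% and 4.41% of cases in shCTR and 17.6% and 13.2% in shPHF8. Leaving out the chromosome 17 region from which the word was read, 402 tiles remained, with 77.4% to 79.9% under a peak. Of the 2394 such tiles in the rest of the autosomes (0.0207% of tiles there) only 9.61%, 10.4%, 14.4% and 12.9% were.

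Of the 6 word-dense shared regions outside the windows, 5 held 3.57 to 4.59 matches per kb. The sixth, chr7:64078201-64091800, held 34.6 matches per kb, matched itself at 65.5% at a shift of 21 bases, and was covered over 5000, 12600, 11400 and 11200 of its 13600 bp. A match to this word is a description of the sequence and names no factor.

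**Figure D3:**
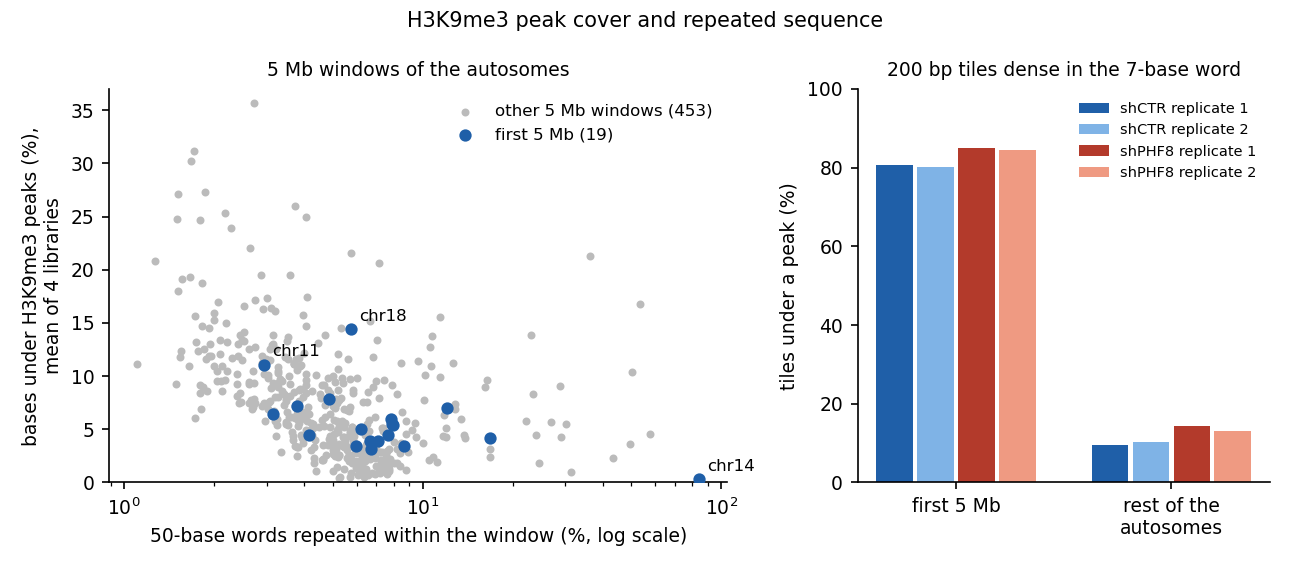
Left, mean percent of bases under H3K9me3 peaks against the percent of 50-base words repeated within the window (log scale) for the 19 proximal (blue) and 453 other full 5 Mb windows (grey). Right, percent of 200 bp tiles with at least 3 matches to the word CACTGTG or its reverse complement that lie under a peak, by library, from 80.3% to 85.1% in the proximal windows, where 489 of the 557 tiles lie on 4 autosomes, and from 9.61% to 14.4% in the rest.

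Chromosome 9 opened with a different repeat. The regions chr9:2999801-3009200 and chr9:3015201-3032800 matched themselves best at a shift of 234 bases, with 68.4% and 74.4% identity, and were 96.8% and 95.9% soft-masked. A monomer of this length is characteristic of mouse major satellite, the repeat of pericentromeric heterochromatin. The first was covered over 9200, 8800, 9200 and 9400 of its 9400 bp and the second over 17600, 16800, 17600 and 16800 of its 17600 bp. Called cover of these 2 regions was therefore almost complete in every library. Of their 50-base words 83.4% and 84.3% were repeated within the window, so reads of other copies can be assigned to them. How such reads were treated is not stated, and its part in the cover of these 2 regions was not tested. The word CACTGTG was at background there, at 0.11 per kb in each.

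**Figure D4:**
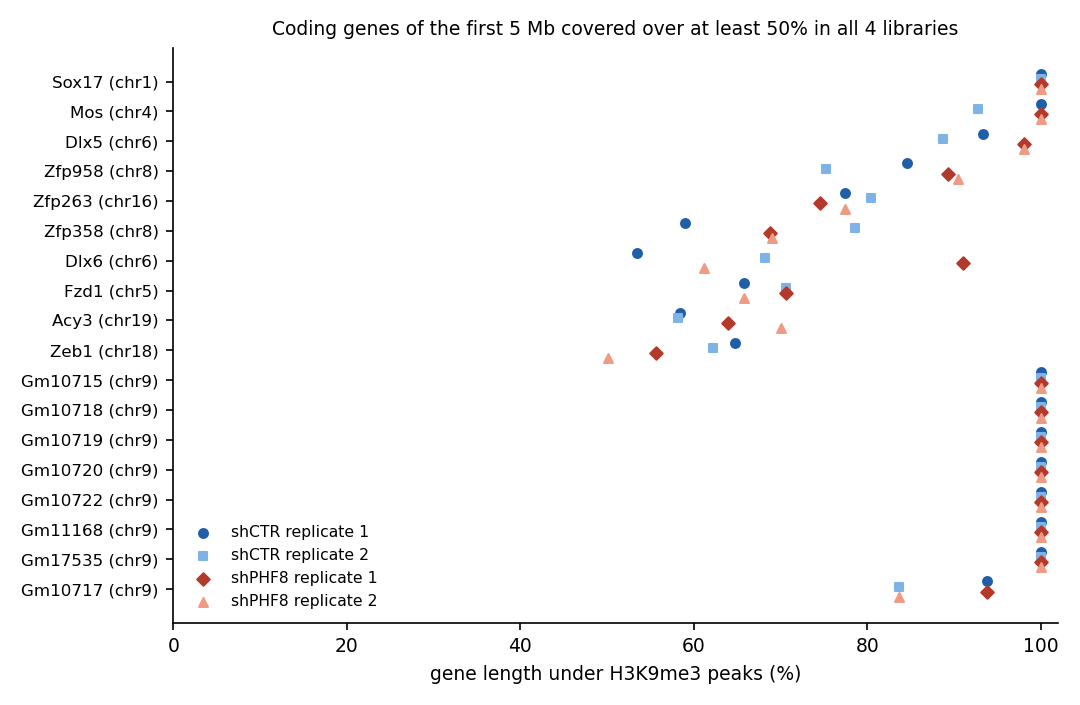
Percent of gene length under H3K9me3 peaks in each library for the 18 protein-coding genes of the windows covered over at least 50% in all 4 libraries. Sox17 is covered fully in each, Zeb1 lies between 50.1% and 64.7% with both shPHF8 libraries lowest, and 8 predicted genes of chromosome 9 lie between 83.6% and 100%.

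Of the 907 protein-coding genes in the windows, 18 (1.98%) were covered over at least 50% of their length in all 4 libraries, against 2.59% of autosomal coding genes. A peak within 1 kb of a start site in all 4 libraries was found at 65 (7.17%), against 11% of autosomal coding genes. Both shares were thus below the background.

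Among the 18 covered genes, 8 were predicted genes of chromosome 9 (Gm10715, Gm10717, Gm10718, Gm10719, Gm10720, Gm10722, Gm11168 and Gm17535). All lie near the window start, and most overlap the 2 regions of 234-base repeats. Gm10715 and Gm17535 lie in another region, chr9:3034001-3044200, whose period was not measured. The 8 were 91.0% to 97.7% soft-masked, and had 79.4% to 88.8% of their 50-base words repeated within the window. Reads of such near-identical copies can be assigned to any of them, so the 8 are not separate observations. The other 10 were named genes of several kinds.

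Sox17, a transcription factor of endoderm and vessels (chr1:4490931-4497354), was covered over 100% of its length in every library. Mos, the kinase that arrests the oocyte in meiosis (chr4:3870657-3872105), was covered over 100%, 92.8%, 100% and 100%. Dlx5, a homeobox gene of interneuron and skeletal development (chr6:6877805-6882085), was covered over 93.3% and 88.8% in shCTR and 98.0% in both shPHF8 libraries. Its neighbour Dlx6 (chr6:6863334-6868568) had 53.5%, 68.2%, 91.1% and 61.1%, with overlapping conditions. Fzd1, a Wnt receptor (chr5:4753839-4758035), had 65.8%, 70.6%, 70.6% and 65.8%. These genes were CpG-rich, with 39.4 CpG per kb at Sox17, 45.7 at Dlx5 and 54.5 at Fzd1.

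A set of 3 zinc finger genes was also covered: Zfp958 (84.6%, 75.2%, 89.3% and 90.4%), Zfp263 (77.5%, 80.5%, 74.5% and 77.5%) and Zfp358 (59.0%, 78.6%, 68.8% and 69.0%). Zfp958 lies in the shared region chr8:4614801-4638800 and is repeat-rich, with 44.2% of its bases soft-masked, while Zfp263 and Zfp358 had 12.9% and 8.27%. Acy3, an aminoacylase gene (chr19:3986570-3990007), was covered over 58.4%, 58.2%, 64.0% and 70.0%. Of these 10 genes Dlx5, Zfp958 and Acy3 had both shPHF8 libraries above both shCTR libraries, without any scaling for total cover.

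Zeb1, which encodes a repressor of epithelial genes that is active in neural progenitors, lay in the widest shared regions of all the windows. It was covered over 64.7% and 62.2% in shCTR and 55.7% and 50.1% in shPHF8, so both knockdown libraries were below both controls. The widest region, chr18:5684401-5751200, measured 66800 bp and was covered over 59000, 56800, 55400 and 47600 bp. Another, chr18:5758401-5788600, was covered over 29800, 27600, 29200 and 27200 bp. Of the 10 widest shared regions of the windows 6 lay within 322.2 kb here (chr18:5684401-6006600), from Zeb1 toward Arhgap12, and this span was chosen after the regions were seen.

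Peaks covered 75.4% and 69.5% of this span with shCTR and 71.2% and 64.7% with shPHF8, so the conditions overlapped there. It supplied 37.0%, 34.6%, 27.9% and 27.7% of all cover in the chromosome 18 window. Outside it, the window was covered to 8.86% and 9.03% with shCTR and 12.7% and 11.6% with shPHF8, which did not overlap. The other 4 of the widest regions were the chromosome 17 repeat, the Zfp958 region, chr16:3251601-3284800 in an intergenic stretch (26200, 24600, 31200 and 26400 of 33200 bp), and chr1:4972201-4996600 at Rgs20 (15600, 10200, 24400 and 20600 of 24400 bp), which encodes a regulator of G protein signalling.

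Knockdown of PHF8 was compared with control by covered bases, peak presence and 30 kb bins. Covered bases of the windows summed to 4.597 and 4.67 Mb with shCTR and 6.26 and 5.88 Mb with shPHF8, a ratio of means of 1.31. In the rest of the autosomes the ratio was 1.32. Both gave an exact two-sided permutation p of 0.333, which is the smallest that 2 libraries against 2 allow, so no comparison of conditions here could pass the threshold of 0.05. The log2 ratio in the windows minus that in the rest was -0.0071 (exact permutation test, p = 1), a difference smaller than the spread between replicates.

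The higher cover in shPHF8 was thus not particular to the windows. Scaled to the same autosomal total (a shift of 0.40 on the log2 scale), the ratio in the windows was 0.995. Leaving out shPHF8 replicate 1 moved the log2 difference to 0.025, leaving out shPHF8 replicate 2 moved it to -0.039, and without chromosome 18 it was 0.010, so its sign rested on single libraries and on 1 chromosome.

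Both shPHF8 libraries exceeded both shCTR libraries in 18 of 19 windows, where 88.1% of all 5 Mb windows did. The exception was chromosome 14, with both shPHF8 libraries lower (0.424% of all windows), on 23 peaks in all. Scaled to the same autosomal total, 6 windows were higher and 8 lower in both shPHF8 libraries. The ratio of shPHF8 to shCTR was above that of the same autosome's rest in 9 windows and below it in 10.

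The highest ratios were on chromosomes 9 (1.65, rest 1.29), 3 (1.63, rest 1.27) and 16 (1.54, rest 1.34). On chromosome 9 the window was covered to 4.77% and 4.25% in shCTR and 7.46% and 7.42% in shPHF8, and on chromosome 3 to 2.68%, 2.48%, 4.24% and 4.19%. The lowest were on chromosomes 14 (0.606, rest 1.32), 17 (1.15, rest 1.38) and 10 (1.16, rest 1.36). On chromosome 17 the window was covered to 6.29% and 6.82% in shCTR and 8.19% and 6.85% in shPHF8, so shCTR replicate 2 and shPHF8 replicate 2 nearly met.

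**Figure D5:**
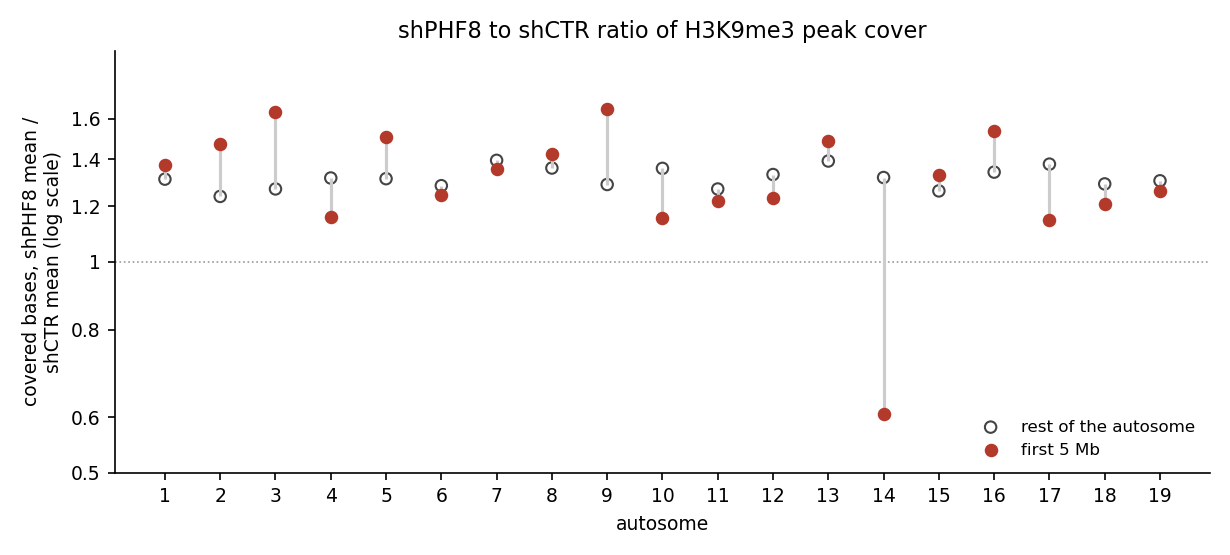
Ratio of covered bases, mean of 2 shPHF8 libraries to mean of 2 shCTR libraries, in the first 5 Mb (red) and the rest (open circles) of each autosome on a log scale. The rest varies between 1.24 and 1.395 while the windows run from 0.606 on chromosome 14 to 1.65 on chromosome 9, above the rest on 9 autosomes.

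In bins of 30 kb, 428 of the 1514 window bins with a peak in any library (28.3%) had more covered bases in both shPHF8 libraries than in both shCTR libraries, and 125 (8.26%) had fewer. Over all autosomal bins the shares were 30% and 8.78%, so the windows were near the background in both directions. Scaled to the same autosomal total, the split in the windows became 282 and 282 bins, where it was 18.1% and 19.8% of all autosomal bins.

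By presence of a peak, 98 of the 2220 merged window regions (4.41%) were gained, with a peak in both shPHF8 libraries and in neither shCTR library, against 4.29% of autosomal regions. In the opposite direction 107 (4.82%) were lost, against 5% of autosomal regions. A peak in all 4 libraries was found in 814 (36.7%), against 38%. Gained regions had a median width of 4000 bp and lost regions of 2400 bp, against 4200 and 2600 bp in the rest of the autosomes.

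By position relative to genes, few gained regions lay at promoters. Of the gained regions, 5 of 98 (5.102%, 95% Wilson interval 2.20 to 11.4) were at coding promoters and 50 (51.0%, 41.3 to 60.7) were intergenic. Of the lost regions, 16 of 107 (14.95%, 9.42 to 22.9) were at coding promoters, 50 (46.7%, 37.6 to 56.1) in coding gene bodies and 33 (30.8%, 22.9 to 40.1) were intergenic. The intervals cover counting error over regions only. Over all autosomes 6.33% of gained and 13.0% of lost regions were at coding promoters and 47.8% and 32.2% were intergenic, so the windows followed the autosomes in both classes.

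The 3 widest gained regions lay in coding genes. The widest, chr2:4930801-4941600 over Phyh, a peroxisomal enzyme of phytanic acid oxidation, was covered over 10800 and 5600 bp in shPHF8 and not in shCTR. The next, chr2:5615401-5624200 in Camk1d, a calcium/calmodulin-dependent kinase, was covered over 8400 and 5600 bp, and chr7:3235801-3244000 over Nlrp12, an innate immune regulator, over 8200 and 1400 bp. In each the larger span was in shPHF8 replicate 1, the library with the widest peaks.

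The 3 widest lost regions also lay in coding genes. The region chr17:7177401-7184200 in Rps6ka2, a ribosomal S6 kinase, was covered over 2000 and 6800 bp in shCTR and not in shPHF8. The region chr15:7808801-7813400 at Gdnf, a neurotrophic factor, was covered over 3000 and 4600 bp and held 45.2 CpG per kb. The region chr18:6104601-6109200 in Arhgap12, which encodes a GTPase activating protein, was covered over 3800 and 3200 bp. Each was narrower than the 3 widest gained regions.

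Gene lists were compared by the bases covered in each gene and 3 kb on either side. Over all coding genes of the windows, 112 (12.3%) were higher in both shPHF8 libraries and 51 (5.62%) lower, against 15.7% and 7.25% of autosomal coding genes. Scaled to the same autosomal total, the counts were 69 and 130, and the shares over the autosomes were 8.4% and 16.6%. Any cover was found at 408 of the 907 window genes (45.0%), against 57% of autosomal coding genes. The 907 include 103 genes of the chromosome 14 window, whose first peak lay 4721200 bp in. The neural, imprinted, metabolic and chromatin lists hold no gene there, so their comparison with all window genes is not matched for this. Directions below are unscaled. Genes that turned from higher to lower with scaling are named, while not every gene that overlapped and became lower is.

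Of 34 window genes listed for neural development and function, 30 had any cover (88.2%, against 45.0% of all window genes). The list is broad and also holds Sox17, described above as a factor of endoderm and vessels. In both shPHF8 libraries 9 (26.5%) were higher and 8 (23.5%) lower, against 12.3% and 5.62% of all window genes. After scaling it was 5 and 16 (14.7% and 47.1%), against 7.61% and 14.3%. Any covered base in a gene or its flanks counts as cover, and the comparison was not matched for gene length. The list holds long genes such as Rbfox1 (chr16:5885355-7411526), and Lif counts on 114 bases in shPHF8 replicate 2 alone. The list was drawn up with earlier results known, so these shares describe its members only. Rbfox1, a neuronal splicing factor, had 18600 and 21400 covered bases in shCTR and 67600 and 53000 in shPHF8, 3.02 times as many. Tiam2, a Rac exchange factor, had 3000 and 1800 against 21200 and 11800, and Cdk14 had 36000 and 31600 against 57312 and 47800. These 3 genes stayed higher after scaling, as did St18, a zinc finger factor (1400 and 1600 against 5400 and 4600), and Itsn2, which had cover only in shPHF8 (562 and 162 bases).

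Other neural genes were higher only without scaling. Gria4, an AMPA receptor subunit, had 27600 and 28400 bases against 50600 and 33800 with shPHF8, Oprm1, the mu opioid receptor, had 17600 and 22400 against 24200 and 25000, and Nefh, a neurofilament, had 1800 and 3200 against 4400 and 5000. Dlx5 had 6996 and 6196 against 7196 in both shPHF8 libraries and turned to lower after scaling.

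Scaling multiplied both shCTR libraries by more than 1 and both shPHF8 libraries by less than 1, so a gene lower in both shPHF8 libraries stayed lower by construction. Besides Zeb1 (122408 and 118408 bases against 106408 and 95408) the lower genes included Yap1, the effector of Hippo signalling, with 12400 and 13600 against 7200 and 5800, and Gdnf with 10200 and 11400 against 7200 and 6600. Camk2b, a synaptic kinase, had 14600 and 18000 against 14200 and 11000, and Kif3c, a kinesin, had 20000 and 21000 against 19000 and 15400. Klf6 had 4200 and 6119 against 0 and 3400. Nf2 (1000 and 2000) and Rb1cc1 (1000 and 1000) had no cover in shPHF8.

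Imprinted genes of the Peg10 and Peg3 clusters, expressed from 1 parental allele, lie in the windows of chromosomes 6 and 7. Of 11 in the windows, 7 had cover (63.6%, against 45.0% of all window genes). A start-site peak in all 4 libraries was found at 6, against 7.17% of window genes. These are not separate loci. Sgce ends at chr6:4747207 on the reverse strand and Peg10 begins at 4747306, and Peg3 (chr7:6730431) and Usp29 (6730578) lie alike, so 1 peak can count for both. In both shPHF8 libraries 3 (27.3%) were higher and none lower, against 12.3% and 5.62%. Peg3 had 6000 and 6600 bases against 9800 and 8600 with shPHF8 and stayed higher after scaling. Scaling left 1 gene higher and 4 lower (9.09% and 36.4%, against 7.61% and 14.3% of window genes), the neighbours Sgce and Peg10 among the 4. Peg10 had 7000 and 7200 against 8400 and 7600, and turned to lower when scaled. Ppp1r9a, which encodes neurabin, had the most cover, with 67400 and 81800 against 79200 and 72600. Its conditions overlapped without scaling and it was lower in both shPHF8 libraries after it.

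Of 9 metabolic genes 8 had cover (88.9%, against 45.0% of all window genes). In both shPHF8 libraries 4 (44.4%) were higher and none lower, against 12.3% and 5.62% of all window genes. After scaling it was 3 and 2 (33.3% and 22.2%), against 7.61% and 14.3%. This list was also drawn up with earlier results known, so its shares describe its members only. Phyh had 1000 and 2200 covered bases with shCTR against 10800 and 8000 with shPHF8, and Pfkp, a phosphofructokinase, had 1800 bases in each shPHF8 library and none in shCTR. Cpt1a, the mitochondrial fatty acid importer, had 8200 and 12533 against 16667 and 16400, and was not apart after scaling. Mthfd1l, a mitochondrial folate enzyme, had the most cover (68000, 78000, 72200 and 57000). Its conditions overlapped without scaling and it was lower in both shPHF8 libraries after it. Asns, asparagine synthetase, had 2600 bases in shCTR replicate 1 alone.

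Of 11 chromatin genes in the windows, 6 had cover and 5 (45.5%), including Suv39h2 and Kmt5b, had none in any library, near the 55.0% of all window genes without cover. Only Asxl2, a Polycomb-associated factor, was higher in both shPHF8 libraries (6800 and 6800 against 10200 and 7800) and its conditions overlapped after scaling. Crebbp, an acetyltransferase, had 17800 and 16000 against 16600 and 13000, and Arid1b, a subunit of SWI/SNF, had 15000 and 14000 against 10200 and 16600. Both overlapped without scaling and were lower in shPHF8 after it. Dnmt3a, a DNA methyltransferase, ranged from 0 to 8600 bases with no order by condition.

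Of 26 zinc finger genes in the windows, 18 of them on chromosome 7, 15 had cover (57.7%), 7 were higher and 1 was lower, and 3 and 6 after scaling. Of the 420 zinc finger genes of all autosomes 74.0% had cover, 31.7% were higher and 4.52% lower, so the 26.9% and 3.85% in the windows were near the family's own shares. Zscan5b had 0 and 1800 bases against 6400 and 8600 with shPHF8, Zfp583 had 4400 and 3400 against 7800 and 8600, and Zfp579 had 4600 and 4800 against 11000 and 6800, and these 3 stayed higher after scaling. Zfp958, the gene with most cover in the list, had 17431 and 15831 against 18231 and 18431 and turned to lower when scaled. Zfp628 had 984 bases in each shCTR library and none in shPHF8.

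Of 33 vomeronasal and olfactory receptor genes in the windows, 24 (72.7%) had no cover in any library and none had a start-site peak in all 4. Of the 1457 such genes of all autosomes 81.1% had no cover, so the windows were not lower in cover than the family as a whole. In both shPHF8 libraries 4 (12.1%) were higher and none lower. Of the family on all autosomes 3.57% were higher and 1.03% lower, and of all window genes 12.3% and 5.62%. The 4 were vomeronasal receptors of the V1R family. They had no covered base in the gene itself in any library, so their values come from the 3 kb flanks alone. Vmn1r3 (253 in both shCTR libraries against 1453 and 1253) and Vmn1r61 (95 and 0 against 2695 and 1495) stayed higher after scaling. Vmn1r2 and Vmn1r238 turned to lower. Members of these families are close copies of one another, so reads can be assigned among them.

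Replicates of 1 condition overlapped more than libraries of different conditions. The Jaccard index, the shared covered bases over those covered in either library, was 0.506 between the shCTR libraries and 0.495 between the shPHF8 libraries of the windows, and 0.434 to 0.449 between conditions. In all, 9.56 Mb of the windows lay under a peak in at least 1 library and 2.31 Mb (24.2%) in all 4, against 23.7% in the rest. About as much of the called cover differed between libraries near the centromere as elsewhere.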

How the data were processed

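H3K9me3 ChIP-seq peaks of 4 libraries (2 shCTR, 2 shPHF8) were analysed. Per the labels, reads were single-end and 50 bases long. Per the study's methods, the authors mapped them on mm10 by SOAPaligner/SOAP2 and called broad peaks with SICER2. Settings, use of the input and treatment of multiply mapped reads are not given in the sources used here. The submitters' processing notes name Bowtie2 2.3.5.1, SAMtools 1.9 and deepTools. The deposited lists, 1 per library, hold positions only.

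Starts were read as 0-based and ends as inclusive, on a 200 bp grid. Covered bases, merged regions and genes (GENCODE M21) were counted with Python 3.11.15, numpy 2.4.6 and pandas 2.3.3, checked on simulated peaks. Sequence, soft-masking, CpG and repeated 50-base words came from GRCm38. Conditions were compared by exact two-sided permutation over libraries or by non-overlap of 2 and 2 libraries.

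Named were the 10 widest shared, 3 widest gained and 3 widest lost regions, covered genes, autosomes with extreme ratios, and list members with cover. Windows, lists and members were chosen with earlier results of these data known. 1 gene of the metabolic list, counted with the others, is not reported here.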

Additional observations from a re-analysis of the deposited data

How the results depend on the processing

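The covered share of the windows was 5.63% as the mean of 4 libraries and ran from 5.31% to 5.90% with 1 library left out. The ratio to the rest of the autosomes (0.735) stayed below 1 under every setting tried, from 0.730 to 0.741 with 1 library left out. In windows of 2 Mb the share was 6.36%, the ratio to the rest 0.834, the shPHF8 to shCTR ratio 1.36 and the log2 difference from the rest 0.046, against -0.0071, and 4 autosomes rather than 2 exceeded their rest in all libraries. In windows of 10 Mb the share was 5.90% and the ratio 0.764. With peaks of at least 5000 bp only, the share was 2.13%, the ratio 0.713, 1 autosome exceeded its rest, the shPHF8 to shCTR ratio rose to 1.97 and the log2 difference was -0.16. The bins became 130 higher and 15 lower, the regions 59 gained and 7 lost, and the genes 11 covered and 17 with a start-site peak. Without chromosome 18 the share was 5.15%, the ratio 0.670 and the log2 difference 0.010. Settings added after seeing the data gave a share of 5.93% and a ratio of 0.763 without chromosome 14, a ratio of 0.769 over 50-base words occurring once, and 0.764 with both. Scaled to the same autosomal total, the shPHF8 to shCTR ratio was 0.995 and the bins 282 higher and 282 lower. The cause of these shifts was not tested.

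The log2 difference ran from -0.039 to 0.025 with 1 library left out, and turned positive without shPHF8 replicate 1. The counts then rest on 3 libraries and rise by construction: 546 to 739 bins higher, 216 to 286 lower, 173 to 392 regions gained and 161 to 279 lost. In 10 kb bins 204 were lower. With conditions at least 3000 bases apart, 98 bins were higher and 18 lower. Merged within 5 kb, 58 regions were lost. At 25% of the gene 37 genes were covered, and within 3 kb 122 had a start-site peak.

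With the replicate number as a block, the ratio was 1.31, the log2 difference -0.0071, and 508 bins were higher and 159 lower. The labels do not say that numbers pair libraries, and a presence call has no blocked form other than its own rule. The other settings moved no count by over 1.5 times. Without a read count for each peak, a change of height inside a peak is not seen.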
